A study of Mus musculus with 6 samples.

Results

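The MYC, MAX and MXD network was examined through 9 genes picked by symbol as members of the network: Myc, Max, Mxd1, Mxd3, Mxd4, Mxi1, Mnt, Mga and Mlx. All 9 were among the 12656 genes of the expression table, and all 9 passed the filter on low values, which left 11931 genes for testing. The measurements are bulk RNA sequencing, with the RNA labelled as polyadenylated, from 4T1, a mouse mammary carcinoma line that the labels class as triple-negative breast cancer. The 2 groups are 3 libraries from 4T1 cells given the solvent DMSO and 3 libraries from 4T1 cells given LP-184, a DNA-damaging anticancer compound, for 48 h. The cells of both groups are of the same single cultured line, with no genetic change named in the labels. The sources used here give no dose, and no time was recorded for the DMSO libraries.

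MYC is a transcription factor that binds DNA only as a pair with MAX, at the E-box CACGTG, and it is known for driving genes of growth, ribosome production and metabolism. The MXD proteins (MXD1, MXI1, MXD3 and MXD4) and MNT also pair with MAX, bind the same sites and bring in the SIN3 corepressor, so that they oppose MYC. MGA pairs with MAX inside a Polycomb complex, PRC1.6, and MLX is a MAX-like partner of the MondoA and ChREBP factors, which respond to glucose, and of some MXD proteins and MNT.

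The libraries held 18864368 to 22471753 reads over the genes of the table. Across genes, libraries of the same group correlated at r of 0.994 or more and libraries of different groups at 0.917 or less. Nothing in the labels ties the replicates to separate cultures, and the p-values therefore reflect only how much these 6 libraries vary, which may be technical. All 7 epithelial markers were measured in every library, with a summed level of 2871 to 2903 CPM (reads scaled to a common library size) with DMSO and 2668 to 2686 CPM with LP-184. Among the receptor genes by which triple-negative tumours are defined, Erbb2 averaged 41.5 CPM with DMSO and 30.7 CPM with LP-184. Esr1, the oestrogen receptor gene, stood at 9.44 to 11.7 CPM with DMSO and 0.262 to 0.575 CPM with LP-184. Pgr was not among the genes of the table. Transcripts of Erbb2 and Esr1 were thus measured in a line labelled triple-negative. Of 7 fibroblast markers only Pdgfra was in the table (6.37 to 7.62 CPM with DMSO, 8.12 to 10.3 CPM with LP-184), and of 4 endothelial markers 0 were. Of 7 leukocyte markers 3 were in the table, with a summed level of 12.8 to 14.8 CPM with DMSO and 59.9 to 72.2 CPM with LP-184. Within that list Csf1r (1.98 to 34.5 CPM on average) and Cd68 (10.2 to 31.3 CPM) were higher and Lyz2 was at 0 reads in all 3 LP-184 libraries. The part of these markers in the results below was not tested.

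With LP-184, Myc, its partner Max and the antagonists Mxd1, Mxd4 and Mnt rose together, while Mxd3, Mga and Mlx fell slightly. The rises ranged from 1.31-fold for Max to 2.18-fold for Mxd4, and none of the falls exceeded 1.29-fold. By limma with Benjamini-Hochberg adjustment over all genes tested (threshold 0.05), 5 of the 9 genes were higher, 3 were lower and Mxi1 did not pass. Changes were common in this comparison: 78.3% of all genes tested passed, 38.3% as higher and 40.0% as lower, so that 8 of 9 called is near the background. The LP-184 libraries all lay above the DMSO libraries for 5 of the 9 genes and all below for 3, against 38.9% and 40.2% of all genes tested, and 79.1% of all genes tested had groups that did not overlap. With each library centred on its median, 1 of the 9 was lower instead of 3. A rise of 2-fold or more, seen in 8.08% of all genes tested, was reached by Mxd1 and Mxd4. The median log2 fold change of the 9 genes was 0.39, beside -0.01 for all genes tested.

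**Figure D1:**
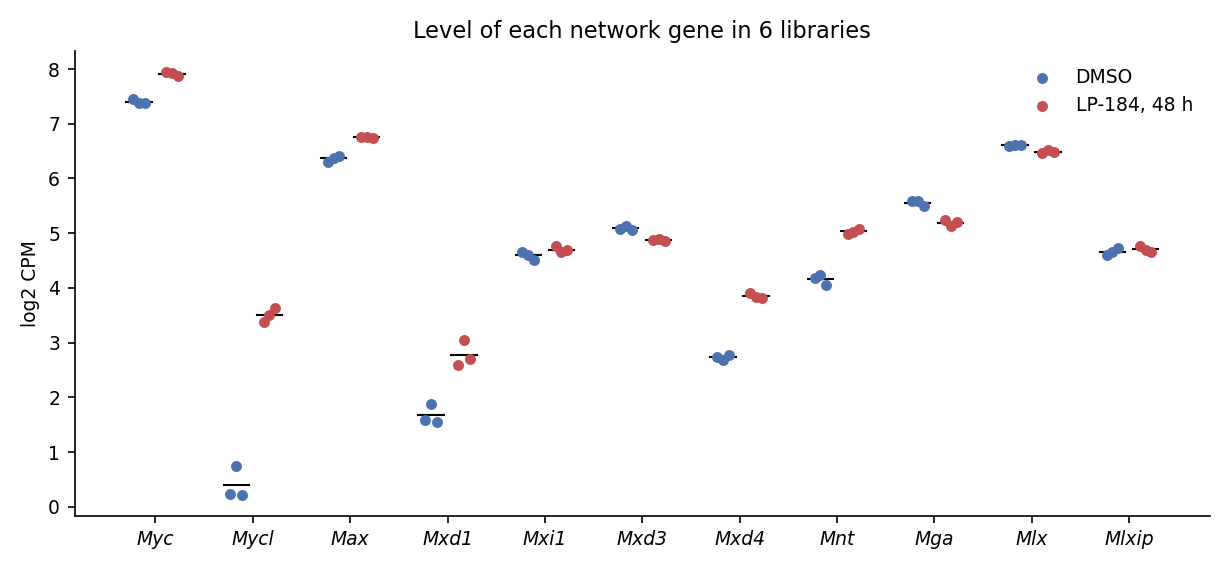
Log2 CPM of the 9 network genes and of the relatives Mycl and Mlxip in each library; points are libraries (blue, DMSO; red, LP-184) and black lines are group means. The 2 groups are apart for Myc, Mycl, Max, Mxd1, Mxd3, Mxd4, Mnt, Mga and Mlx, and overlap for Mxi1 and Mlxip.

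Myc, which encodes the activating factor of the network (chromosome 15, 61985391 to 61990374 in GRCm38, forward strand), was measured at 7.44, 7.38 and 7.38 log2 CPM in DMSO replicates 1 to 3 and at 7.95, 7.93 and 7.87 log2 CPM in LP-184 replicates 1 to 3. The LP-184 libraries all lay above the DMSO libraries, and the spread within a group was small beside the gap. The mean level went from 169 ± 4.14 CPM to 241 ± 7.11 CPM (SD, n = 3 each). Myc thus rose 1.42-fold, by 0.51 ± 0.03 (SE) on the log2 scale (limma, adjusted p = 2.7e-17), and 22.2% of all genes tested had a larger rise. The authors' deposited table gives Myc a log2 fold change of 0.51, beside 0.39 for Max, 1.12 for Mxd1, 1.14 for Mxd4, 0.87 for Mnt, 0.11 for Mxi1, -0.21 for Mxd3, -0.37 for Mga and -0.12 for Mlx. The gene rests on 9937 reads with DMSO and 15159 reads with LP-184 over 3 libraries each.

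The relative Mycl, which encodes L-MYC, a MAX partner of the same family, changed far more than Myc but from a low level. Mycl (chromosome 4, 122995652 to 123002485, forward strand) stood at 0.23, 0.75 and 0.23 log2 CPM with DMSO and at 3.38, 3.50 and 3.63 log2 CPM with LP-184. Every LP-184 library lay far above every DMSO library, of which replicate 2 was the highest. Over 3 libraries each, 74 reads were counted with DMSO and 704 with LP-184. The rise was 8.59-fold, or 3.10 ± 0.19 (SE) in log2 units (limma, adjusted p = 1.6e-16), on the deposited scale, which understates changes of low genes. Only 0.503% of all genes tested had a larger one. Scaled to annotated exon length, Mycl made up 0.493 ± 0.123% of the sum of Myc and Mycl with DMSO and 3.06 ± 0.341% with LP-184 (SD, n = 3 each). Mycn, the third family member, was not among the genes of the expression table.

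Pvt1, the long noncoding RNA gene that starts 47.6 kb downstream of Myc on the same strand, moved the other way. It was measured at 3.49, 3.26 and 3.37 log2 CPM with DMSO and at 0.85, 1.35 and 1.601 log2 CPM with LP-184, so the groups did not overlap. The difference between groups was -2.10 ± 0.18 (SE) in log2 units (limma, adjusted p = 8.5e-13). Pvt1 covers 340 kb against 4.98 kb for Myc, and once the dependence on gene length across all genes was subtracted its value was 0.34 (adjusted p = 0.037).

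Max encodes the shared partner through which MYC, MXD, MNT and MGA bind DNA (chromosome 12, 76937269 to 76962201, reverse strand). Its level was 6.30, 6.38 and 6.42 log2 CPM in the DMSO libraries and 6.77, 6.76 and 6.73 log2 CPM in the LP-184 libraries. The LP-184 libraries were all above the DMSO libraries and closer to each other than these were. Max rose 1.31-fold, with a mean of 82.5 ± 3.28 CPM in DMSO and 108 ± 1.27 CPM in LP-184 libraries (SD, n = 3 each). In log2 units the rise was 0.39 ± 0.04 (SE; limma, adjusted p = 4.7e-11). Scaled to exon length, the ratio of Myc to Max was 2.92, 2.66 and 2.58 with DMSO and 3.01, 2.97 and 2.90 with LP-184. The lowest LP-184 ratio lay just below the highest DMSO ratio, so this ratio was not apart between the groups. The ratio of the summed MXD, Mnt and Mga levels to Max was apart, at 1.05 to 1.19 with DMSO and 0.933 to 0.956 with LP-184.

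The 4 MXD genes did not move as a block: Mxd1 and Mxd4 rose a little over 2-fold, Mxd3 fell slightly and Mxi1 did not pass the test. Mxd1 encodes the founding MXD repressor, known from cells that stop dividing and mature (chromosome 6, 86647042 to 86669161, reverse strand). It was measured at 1.58, 1.88 and 1.55 log2 CPM with DMSO and at 2.59, 3.04 and 2.699 log2 CPM with LP-184. All LP-184 values lay above all DMSO values, with LP-184 replicate 2 the highest. Mxd1 rose 2.15-fold, by 1.10 ± 0.18 (SE) on the log2 scale (limma, adjusted p = 9e-07). Its mean was 3.11 ± 0.418 CPM with DMSO and 6.82 ± 1.17 CPM with LP-184 (SD, n = 3 each), and 6.57% of all genes tested had a larger rise.

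Mxd4, another MXD repressor (chromosome 5, 34173883 to 34187720, reverse strand), stood at 2.74, 2.68 and 2.77 log2 CPM with DMSO and 3.91, 3.83 and 3.82 log2 CPM with LP-184. The replicates of each group lay far closer to each other than to the other group. Mxd4 rose 2.18-fold, by 1.12 ± 0.12 (SE) in log2 units (limma, adjusted p = 1.1e-10). Its mean was 6.54 ± 0.230 CPM with DMSO and 14.4 ± 0.494 CPM with LP-184 (SD, n = 3 each). An annotated antisense gene covers 514 exon bases of Mxd4, and since the strand setting of the counting is not given, reads from that stretch cannot be told apart.

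Mxd3, the MXD family member known from dividing cells (chromosome 13, 55325168 to 55329823, reverse strand), had the highest level per exon length of the 4. Its values were 5.08, 5.13 and 5.06 log2 CPM with DMSO and 4.87, 4.89 and 4.86 log2 CPM with LP-184. The LP-184 values were all lower, by a small margin. The fall of 1.16-fold (log2 difference -0.21 ± 0.06, SE; limma, adjusted p = 0.003) lost its call when libraries were centred on their medians (-0.12, adjusted p = 0.073) or quantile normalized (-0.13, adjusted p = 0.068). It overlaps exons of the gene Prelid1 on the other strand over 105 bases, 4.43% of its exon length, and Prelid1 had a log2 fold change of 0.06.

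Mxi1 encodes MXI1, also called MXD2 (chromosome 19, 53310518 to 53375810, forward strand). Its values were 4.66, 4.60 and 4.52 log2 CPM with DMSO and 4.76, 4.65 and 4.69 log2 CPM with LP-184, and the groups overlapped. The log2 fold change was 0.11, with a 95% interval of -0.04 to 0.25 (limma adjusted p = 0.19), so it did not pass. Under both other scalings it did: 0.19 (adjusted p = 0.017) after median centring and 0.19 (adjusted p = 0.019) after quantile normalization. An annotated antisense gene covers 194 of its exon bases.

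Mnt, the broadly expressed MAX partner that opposes MYC (chromosome 11, 74830920 to 74845725, forward strand), rose 1.83-fold. It was measured at 4.19, 4.23 and 4.06 log2 CPM in DMSO libraries and at 4.99, 5.02 and 5.09 log2 CPM in LP-184 libraries. The groups were far apart beside their spread. The mean was 17.8 ± 1.10 CPM with DMSO and 32.6 ± 1.11 CPM with LP-184 (SD, n = 3 each), a log2 rise of 0.87 ± 0.08 (SE; limma, adjusted p = 9.4e-13).

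Mga, a very large protein that carries both a T-box and a MAX-binding domain (chromosome 2, 119897228 to 119969581, forward strand), fell 1.29-fold. Its values were 5.59, 5.58 and 5.49 log2 CPM with DMSO and 5.24, 5.12 and 5.20 log2 CPM with LP-184, with all LP-184 libraries below. The log2 difference was -0.37 ± 0.06 (SE; limma, adjusted p = 4.9e-07), and its direction turned once the gene length trend was removed (0.16, adjusted p = 0.0094). Of the 12 PRC1.6 subunits tested, L3mbtl2, a reader of chromatin marks in that complex, had the largest rise (log2 fold change 1.26 ± 0.07, SE) and Yaf2, a binding partner of its ring finger proteins, the largest fall (-0.79 ± 0.05). In all, 5 of the 12 subunits were higher and 6 lower, with a median of -0.08, where 38.3% of all genes tested were higher and 40.0% lower.

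Mlx, the MAX-like partner of MondoA (chromosome 11, 101087277 to 101092207, forward strand), was close to its control level. It stood at 6.59, 6.62 and 6.61 log2 CPM with DMSO and 6.47, 6.52 and 6.48 log2 CPM with LP-184. The LP-184 libraries were all lower, by a narrow margin. The log2 difference of -0.11 ± 0.04 (SE; limma, adjusted p = 0.0062) did not pass with median centring (-0.03, adjusted p = 0.51). Mlx shares 385 exon bases, 19.3% of its exon length, with Psmc3ip on the other strand. Psmc3ip itself was lower (-0.36, limma adjusted p = 5.2e-06), and reads of the shared bases cannot be told apart without the strand setting.

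Mlxip, which encodes the MLX partner MondoA, had a log2 fold change of 0.04 with a 95% interval of -0.10 to 0.19 (limma adjusted p = 0.6), and its groups overlapped. With the length trend removed it was called higher (0.44, adjusted p = 3.9e-06). Mlxipl, which encodes ChREBP, was not among the genes of the expression table. The classical MondoA and MLX target Txnip, a brake on glucose uptake, rose 4.15-fold, from 3.72, 3.57 and 3.54 log2 CPM with DMSO to 5.70, 5.67 and 5.62 log2 CPM with LP-184 (2.05 ± 0.07 log2 units, SE; limma, adjusted p = 2.6e-23). Its paralog Arrdc4, a target of the same factors, rose by 0.75 ± 0.21 (SE) on the log2 scale (limma adjusted p = 0.0014). Arrdc4 did not pass with the length trend removed (0.43, adjusted p = 0.071). An annotated antisense gene covers 606 exon bases of Txnip, and reads from that stretch cannot be told apart without the strand setting.

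The E-box that these proteins bind also lies near the starts of some of their own genes. RefSeq promoter windows of GRCm38.p6 (250 bases before to 50 after a start) matched 8 of the 9 genes, all but Myc, with 10 windows in all since Mxi1 has 3. The palindrome CACGTG was in the windows of 4 genes, Max, Mnt, Mxd4 and Mlx, of which the first 3 rose and Mlx fell slightly. Counted by window, 4 of the 10 windows of the network genes hold it, and 7.15% of all 32851 windows of this length do. The difference was not tested, and the genes were picked by symbol. The stretches of 120 bases around each match are shown because the motif is the site that MAX partners recognise; capitals mark CACGTG, and each is written 5′ to 3′ on the strand of the gene.
Max, chr12:76962239-76962358, reverse strand, motif from 3 bases before the start: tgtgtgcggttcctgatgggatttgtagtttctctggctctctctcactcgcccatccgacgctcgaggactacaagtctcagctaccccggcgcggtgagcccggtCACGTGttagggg
Mnt, chr11:74830744-74830863, forward strand, motif from 123 bases before the start: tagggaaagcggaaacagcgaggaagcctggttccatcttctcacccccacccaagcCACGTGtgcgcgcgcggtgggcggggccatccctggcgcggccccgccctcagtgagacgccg
Mxd4, chr5:34187841-34187960, reverse strand, motif from 219 bases before the start: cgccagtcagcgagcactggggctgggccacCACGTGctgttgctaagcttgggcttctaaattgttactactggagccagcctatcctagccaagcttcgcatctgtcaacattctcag
Mlx, chr11:101087155-101087274, forward strand, motif from 40 bases before the start: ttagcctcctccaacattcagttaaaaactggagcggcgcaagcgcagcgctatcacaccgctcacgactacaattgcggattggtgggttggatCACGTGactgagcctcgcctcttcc
The match lies across the start itself in Max and farthest upstream in Mxd4. The windows of Mxd1, Mxd3, Mxi1 and Mga do not hold these letters. A match is a description of the letters and not of binding in these cells.

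Levels of different genes were compared per kb of annotated exon (CPM per kb), which depends on the annotated length. With DMSO the order was Myc (62.2 ± 1.52), Mlx (48.6 ± 0.549), Max (22.9 ± 0.912) and Mxd3 (14.3 ± 0.364), in CPM per kb (SD, n = 3). Below them came Mnt at 3.84 ± 0.238, Mxi1 at 3.53 ± 0.178 and Mga at 3.06 ± 0.116 CPM per kb. Mxd4 at 0.771 ± 0.0271 and Mxd1 at 0.439 ± 0.0591 CPM per kb were lowest. The ranges of Mnt and Mxi1 overlapped, and all other neighbours were apart. With LP-184 the order was the same and no neighbours overlapped: Myc reached 88.7 ± 2.62, Max 30.0 ± 0.354, Mnt 7.05 ± 0.240, Mxd4 1.69 ± 0.0582 and Mxd1 0.964 ± 0.166 CPM per kb.

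Although Mxd1 and Mxd4 rose, the sum of the 4 MXD genes barely moved, and Mxd3 made up most of it. The sum was 18.5 to 19.5 CPM per kb with DMSO and 18.6 to 19.0 CPM per kb with LP-184, with overlapping ranges. The Mxd3 share of that sum went from 75.1 ± 0.595% to 65.7 ± 0.363% (SD, n = 3 each). With Mnt and Mga added, the sum of the 6 MYC antagonist genes was 26.2, 26.7 and 25.04 CPM per kb with DMSO and 28.2 to 28.3 CPM per kb with LP-184. Myc as a share of itself plus these 6 genes was 71.0%, 69.8% and 71.0% in the DMSO libraries and 76.3%, 76.0% and 75.2% in the LP-184 libraries. The share was thus higher in each LP-184 library, by 5.27 percentage points on average. It was not computed with the gene length trend removed, which changes its parts unequally. On that scale the log2 fold changes were 0.17 for Myc, 0.56 for Mnt, 0.54 for Mxi1 and -0.54 for Mxd3. These sums are descriptions of mRNA levels over chosen genes and carry no test.

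**Figure D2:**
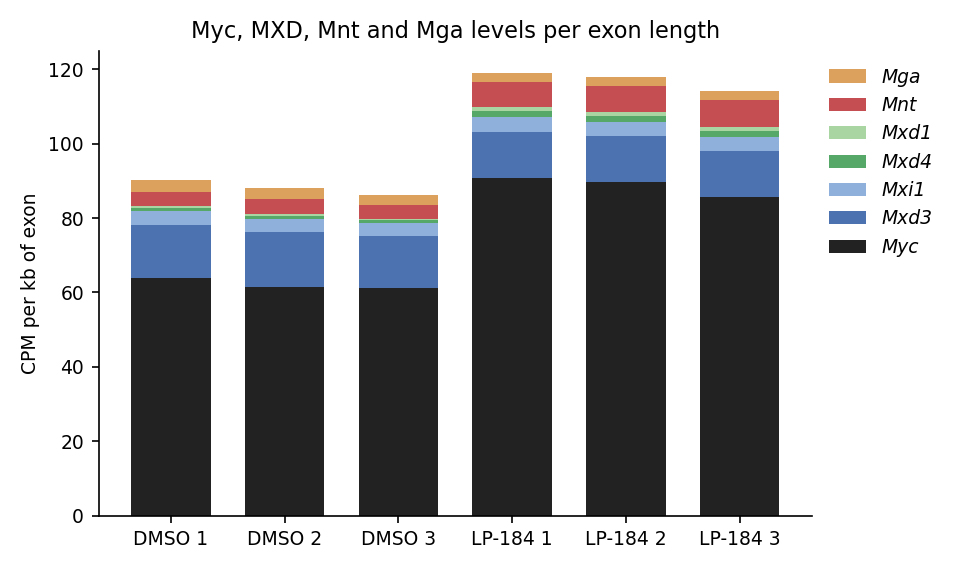
Stacked level per exon length (CPM per kb) of Myc and the 6 genes Mxd3, Mxi1, Mxd4, Mxd1, Mnt and Mga in each of the 6 libraries. The bars reach 86.3 to 90.2 with DMSO and 114 to 119 with LP-184, and Myc is the largest part of every bar.

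Fold changes in these libraries followed gene length, and the network genes differ in span from 4.66 kb (Mxd3) to 72.4 kb (Mga). At the 4.98 kb of Myc the trend over all genes stood at 0.34 on the log2 scale, and at the 72.4 kb of Mga at -0.53. With that trend removed, 7 of the 9 genes were higher and 2 lower, where 35.3% of all genes with a span were higher and 38.9% lower. The values were 0.17 for Myc, 0.26 for Max, 0.92 for Mxd1, 0.80 for Mxd4 and 0.56 for Mnt, all still called. Mxi1 (0.54, adjusted p = 2.9e-07) and Mga (0.16) were higher on this scale, where the trend itself stood at -0.43 and -0.53. Mxd3 (-0.54) and Mlx (-0.45), which are short, lay further below the other genes of their length than below 0. Mxd1, Mxd4 and Mnt thus stayed above Myc on this scale as on the deposited one, and Mycl stood at 2.72.

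**Figure D3:**
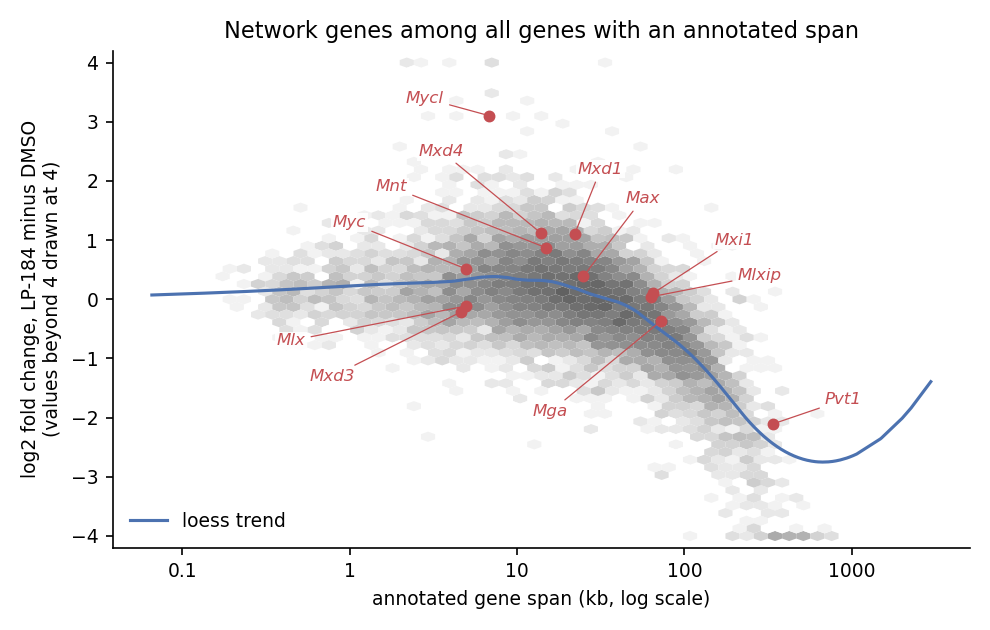
Log2 fold change against annotated gene span (kb, log scale) for all genes with an annotated span (grey, darker where more genes lie), with the loess trend (blue line) and the network genes, Mycl, Mlxip and Pvt1 in red. Values beyond 4 are drawn at 4. Mxd3 and Mlx lie below the line and all other genes in red above it, from Mga, the nearest (0.16), to Mycl, the farthest (2.72).

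**Figure D4:**
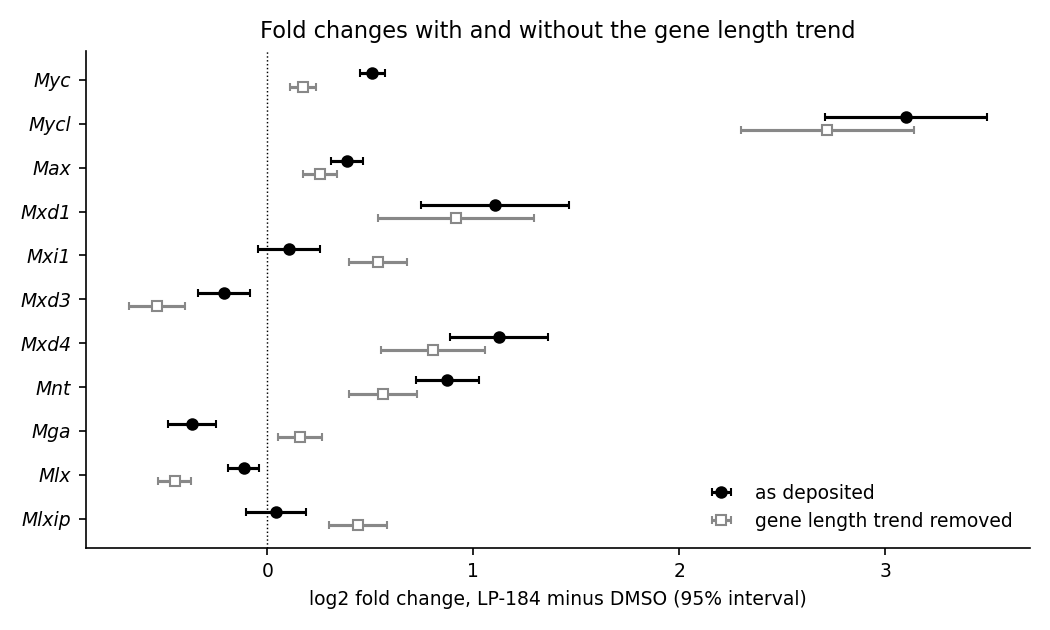
Log2 fold change with its 95% interval for each gene, as deposited (filled circles) and with the gene length trend removed (open squares). Myc goes from 0.51 to 0.17, Mga from -0.37 to 0.16 and Mxi1 from 0.11 to 0.54.

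The genes around the network were described by counts from lists chosen by function, to be read beside the 38.3% of all genes tested that were higher and the 40.0% that were lower (median -0.01). With the length trend removed these shares were 35.3% and 38.9% (median -0.03). Of 13 subunits of the SIN3-HDAC corepressor that MXD proteins and MNT recruit, 7 were higher and 4 lower, and their median stood at 0.14 in log2 units. Once the length trend was subtracted, 6 were higher and 6 lower, with a median of -0.01. Sap18 rose by 0.71 ± 0.03 (SE) and Arid4b, a chromatin-binding subunit, fell by 1.59 ± 0.12 on the log2 scale. Arid4b spans 136 kb and stood at -0.37 (adjusted p = 0.0014) relative to the length trend. Sin3a, the scaffold itself, was at -0.56 (-0.27 relative to the trend) and its paralog Sin3b at 0.16. Of 16 MYC cofactors, 8 were higher and 5 lower, with a median of 0.15, and relative to the length trend 11 were higher and 3 lower, with a median of 0.23. The histone acetyltransferase gene Kat2a rose by 1.26 ± 0.04, and Crebbp, another acetyltransferase, fell by 1.03 ± 0.10. Once the length trend was subtracted, Crebbp stood at 0.14 (adjusted p = 0.14).

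Among 19 regulators of MYC protein stability, 6 were higher and 11 lower, with a median of -0.18, beside 38.3% and 40.0% of all genes tested. That balance turned with the length trend removed, to 8 higher and 7 lower with a median of -0.08. The list mixes genes that protect MYC with genes that break it down, so these counts give no direction for MYC. The deubiquitinase gene Usp36 rose by 0.94 ± 0.05 (SE) on the log2 scale. Another deubiquitinase gene, Usp28, was lower (-0.78, limma adjusted p = 2.9e-11), and at -0.48 with the length trend removed. Btrc, a ubiquitin ligase subunit, had the largest fall (-2.44 ± 0.12). It covers 166 kb and stood at -0.95 relative to the length trend. Fbxw7, the ubiquitin ligase subunit best known for MYC turnover, was at -1.57 (limma adjusted p = 1.2e-10), and at -0.09 with the length trend removed, where it was not called. Of 23 regulators of Myc transcription or mRNA, 6 were higher and 16 lower (median -0.34), and with the trend removed 7 were higher and 10 lower (median -0.06). Activators and repressors of Myc are pooled in this list, so its counts give no direction for Myc. Klf4, a zinc finger transcription factor, rose by 1.68 ± 0.09, and Pvt1 had the largest fall. Fubp1, which binds a single-stranded element upstream of Myc, was at -1.76 (limma adjusted p = 2e-28) and stayed at -1.87 with the trend removed.

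Genes known as activated by MYC were mostly higher. Of 66 tested, 54 were higher and 11 lower, beside 38.3% and 40.0% of all genes, with a median of 0.37 beside -0.01. The ribosome biogenesis gene Noc4l had the largest rise (1.48 ± 0.04, SE) and Ung, which removes uracil from DNA, the largest fall (-0.91 ± 0.06). The abundant nucleolar chaperone gene Npm1 was at -0.62, and the MYC targets Ncl (0.05), Ldha (0.06) and Odc1 (0.13) were higher by little. With the length trend removed the last 3 were lower (-0.27, -0.26 and -0.25). These genes are short, with a median span of 12.2 kb beside 21.8 kb for all genes with a span. With the length trend removed, 35 of 65 were higher and 20 lower, with a median of 0.12 beside -0.03. Of 10 genes known as repressed by MYC, 5 were higher and 4 lower, with a median of 0.21. Relative to the length trend 3 of 9 were higher and 5 lower, with a median of -0.37. These 9 leave out Ddit3, which was called higher as deposited but had no annotated span. The values before and after removal of the trend are thus not over the same genes. Ddit3, the stress factor CHOP, rose by 3.64 ± 0.07 and Thbs1, an inhibitor of blood vessel growth, fell by 0.59 ± 0.03 (-0.90 relative to the trend). The cell cycle inhibitor gene Cdkn1a was at 3.15 and Gas1, a growth arrest gene of low level, at -3.31. This list thus moved in both directions.

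**Figure D5:**
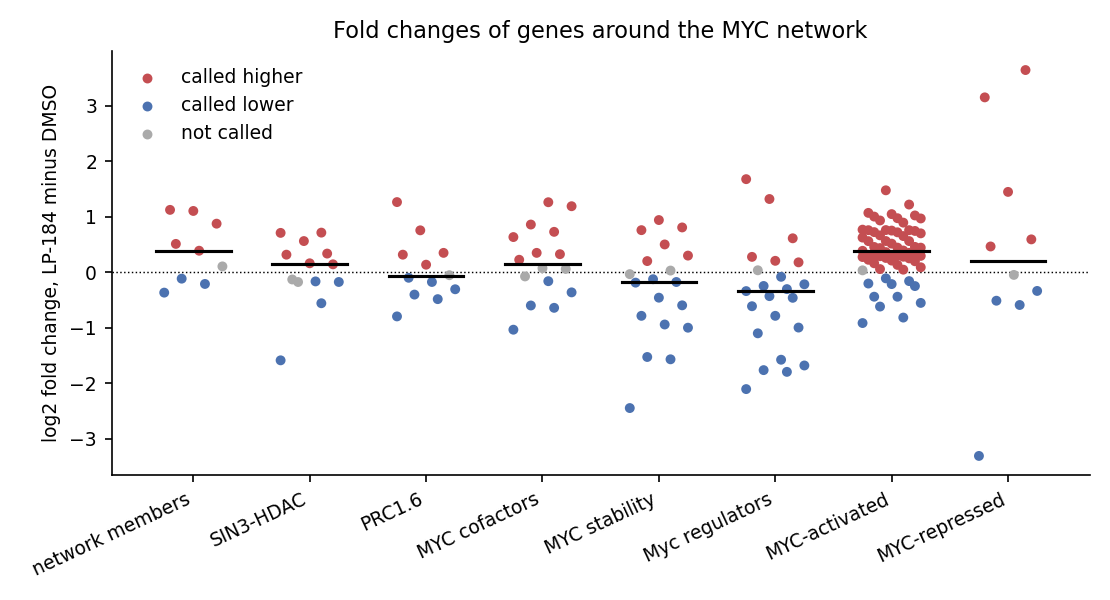
Log2 fold change of every tested gene of the network and of 7 lists around it; red points were called higher, blue lower and grey not called, and black lines are list medians. MYC-activated genes lie mostly above 0 (median 0.37) and regulators of Myc mostly below (median -0.34). With the length trend removed, which is not drawn here, these medians are 0.12 and -0.06.

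The genes closest to Myc in pattern were Get4, a chaperone subunit for tail-anchored proteins, Rbm45, an RNA-binding protein, and Ctdp1, a phosphatase of RNA polymerase II. Closeness was the root mean square distance over 6 libraries of log2 CPM centred on the DMSO mean, which was 0.018 for Get4, 0.018 for Rbm45 and 0.021 for Ctdp1. Their Pearson correlations with Myc were 0.999, 0.998 and 0.997. With 2 groups such values are common: 648 genes correlated with Myc above 0.99.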

How the data were processed

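Bulk RNA sequencing of 6 libraries (3 DMSO, 3 LP-184) was used. The authors deposited log2 CPM for 12656 genes, 1 column per library, with a prior count added. Columns headed as control were read as DMSO, numbered alike, since DMSO is the sole control in the labels. Per the submitters' processing notes, the tools include STAR 2.7, Subread 2.0, featureCounts, fastp and edgeR, without roles or settings; hg38 and mm10 are the builds listed there, and the genes here are mouse genes. The sources used here give no strand setting, annotation or filter. The authors also deposited their own log2 fold changes with p-values and adjusted p-values, set beside the values here.

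With the common floor (-3.34 log2 CPM for 0 reads) removed, the values came out as whole reads in 100% of cases (tolerance 1e-06), which gave reads per library. CPM are values with that floor removed. Genes reaching log2 CPM 0 in 3 or more libraries were fitted with limma 3.58.1 in R 4.3.3 (2 groups, empirical Bayes with a variance trend, two-sided, Benjamini-Hochberg adjustment over 11931 genes), and fold changes are LP-184 minus DMSO. Gene positions, spans and exon lengths are from GENCODE M21 (GRCm38), matched by symbol for 12134 genes (95.9%). The length trend was a loess curve (span parameter 0.3) of fold change on log10 span over 11462 genes. It was subtracted from the LP-184 values as if known without error. The p-values after its removal therefore leave out the uncertainty of the curve and the scatter of genes around it. Summaries used Python 3.11.15. The fitting code was tried on simulated data with far fewer changed genes than here, which does not test it under so broad a change.

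The 9 genes and all lists were chosen with earlier results of these data known. Genes named besides the 9 were the relatives Mycl and Mlxip, the targets Txnip and Arrdc4, Pvt1, the 3 genes nearest to Myc, and in each of 7 lists the called genes with the largest rise and fall among those with a group mean of log2 CPM 3 or more. Sin3a, Sin3b, Fbxw7, Usp28, Fubp1, Npm1, Ncl, Ldha, Odc1, Cdkn1a, Gas1 and the overlapping genes Prelid1 and Psmc3ip were chosen after their values were seen. Phb is listed as Phb1 in the table. Alternatives were other scalings, pseudocounts, filters, fits and thresholds, a block for the replicate number, omission of each library in turn, voom on recovered reads and removal of the length trend.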

Additional observations from a re-analysis of the deposited data

How the results depend on the processing

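Of 869 comparisons of 49 values with their alternatives, 850 kept direction and call or, for counts of genes, stayed within 1.5 times the count reported, among them all 294 that left out a library. Network genes higher, for one, went from 5 to 6 with median centring and to 7 with the length trend removed. Myc, Max, Mxd1, Mxd4, Mnt and Mycl kept direction and call under all 18 alternatives. Their lowest log2 fold changes were 0.17, 0.26, 0.92, 0.80, 0.56 and 2.46. The size of their p-values rests on variance shared across genes. When limma was fitted without the variance trend, their adjusted p-values were larger, from 1e-05 for Mxd4 to 0.001 for Mxd1, with 9.5e-05 for Myc. With median centring Mxd3 (-0.12) and Mlx (-0.028) lost their calls, Mxi1 (0.19) passed and 1 network gene was lower; with quantile normalization Mxd3 (-0.13) lost its call and Mxi1 (0.19) passed. Median centring shifts every fold change by 0.09, whereas quantile normalization moved Mxd1 to 1.36 and Mxd4 to 1.34. Removal of the length trend reversed Mga (0.16), Pvt1 (0.34) and Crebbp (0.14), and Mxi1 (0.54) and Mlxip (0.44) passed. It left 3 MYC cofactors, 7 stability regulators and 10 Myc regulators lower, 35 MYC-activated genes higher and 20 lower, and 3 MYC-repressed genes higher. Ddit3 (MYC-repressed) and Phb1 (MYC-activated), both called higher as deposited, had no annotated span and are missing from these counts. Without length scaling the difference in Myc share was 6.26 percentage points. The cause of these changes was not tested beyond the alternative's own construction. DMSO and LP-184 libraries share only replicate numbers: same-numbered libraries had deviations correlated at -0.018 to -0.0065, and 0 of 6 libraries correlated best with their own number. With the replicate number as a block, 4550 genes were higher and 4741 lower, Myc stayed at 0.51, and all 48 results kept their call or, for counts, stayed within 1.5 times. Depth limits the value of Mycl with DMSO (74 reads over 3 libraries).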
